A study of Mus musculus with 4 samples.

Results

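The H3K36me3 domains described here are the autosomal regions of the H3K36me3 list that were wider than 5000 bp and shared 0 bases with any region of the H3K9me3 list. Of 31593 H3K36me3 regions, 31399 lay on autosomes and 1842 of these were wider than 5000 bp. An H3K9me3 region overlapped 306 of them, which left 1536 wide domains, 4.86% of the list (95% Wilson interval 4.63 to 5.10). Width and the absence of H3K9me3 were what the domains were chosen by, so both are given as description only. The regions come from ChIP-seq of H3K36me3 and H3K9me3, the trimethylated lysines 36 and 9 of histone H3, in mouse embryonic stem (ES) cells of strain 129S1/SvImJ at passages below 20, grown in serum with leukaemia inhibitory factor. WT cells were unmodified (H3f3a+/+; H3f3b+/+). G34R cells carried a single targeted copy of H3f3a with the glycine 34 to arginine substitution under the endogenous H3f3a promoter (H3f3a+/G34R; H3f3b+/+), brought into place by Cre recombination of a conditional allele, and both cell types kept normal H3f3b. There was 1 library per mark in each cell type, 4 in all.

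The lists give positions only, and a region was listed where either cell type was enriched. WT and G34R cells can therefore not be told apart at any domain, and neither the amount of the mark nor the depth behind it is known. A further limit is that the authors retained only bins that overlapped annotated genes, so sequence away from genes could not enter a domain. Domains are not replicates, several share a gene, and no p-value was computed. The intervals cover counting error alone. For comparison, 27005 narrower autosomal H3K36me3 regions (at most 5000 bp, no H3K9me3) and 227 wide H3K9me3 domains (above 5000 bp, no H3K36me3) were described in the same way.

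H3K36me3 is placed on nucleosomes by SETD2, an enzyme that travels with elongating RNA polymerase II, so that the mark accumulates over the bodies of transcribed genes and rises towards their 3′ ends. Proteins with PWWP and related domains, DNMT3B among them, bind it, and demethylases of the KDM4 family remove methyl groups from lysine 36 and lysine 9. In ES cells it covers genes of growth and of pluripotency. The cell type was checked against marker genes. Any H3K36me3 region touched 17 of 18 ES cell markers (all but Dppa5a), 0 of 9 fibroblast markers, 0 of 7 primitive endoderm markers, 1 of 3 neural markers found (Tubb3) and 1 of 5 mesoderm markers (Eomes), against 34.7% of all autosomal protein-coding genes. Wide domains touched 4 of the ES cell markers, namely Sall4, L1td1, Tet1 and Esrrb, against 6.39% of all genes.

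Sequence near the centre of each of the 5 widest domains is shown because these domains are made of alternating exons and introns, which the measurements below turn on. For each, the coding exon nearest to the centre of the domain is printed in capitals, with 40 bases of intron on either side in lower case, 5′ to 3′ on the strand of the gene (NCBIM37). A limit was set on the length of exon and flanks together. The Ubr4 exon is exon 53 of 107 (chr4:138991824-138991987 with its flanks, plus strand), that of Prrc2b is exon 14 of 31 (chr2:32067555-32067851, plus strand), and that of Myh9 is exon 18 of 41 (chr15:77610380-77610529, minus strand). The Dnmt1 exon is exon 17 of 39 (chr9:20728427-20728625, minus strand) and that of Sf3b3 is exon 12 of 26 (chr8:113349955-113350186, minus strand).
Ubr4: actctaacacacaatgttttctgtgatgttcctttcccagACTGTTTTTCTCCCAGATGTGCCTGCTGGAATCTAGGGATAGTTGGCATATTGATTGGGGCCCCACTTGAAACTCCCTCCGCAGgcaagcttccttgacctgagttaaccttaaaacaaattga
Prrc2b: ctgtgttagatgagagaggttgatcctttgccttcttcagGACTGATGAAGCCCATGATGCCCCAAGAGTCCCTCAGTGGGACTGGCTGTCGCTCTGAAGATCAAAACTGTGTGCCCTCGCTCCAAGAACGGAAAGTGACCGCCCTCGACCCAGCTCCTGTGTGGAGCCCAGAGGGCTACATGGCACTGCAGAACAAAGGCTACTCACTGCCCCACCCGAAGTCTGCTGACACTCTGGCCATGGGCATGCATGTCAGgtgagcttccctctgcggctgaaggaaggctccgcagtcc
Myh9: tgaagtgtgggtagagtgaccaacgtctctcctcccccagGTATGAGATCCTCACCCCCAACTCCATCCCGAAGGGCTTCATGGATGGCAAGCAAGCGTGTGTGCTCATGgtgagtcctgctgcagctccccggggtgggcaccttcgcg
Dnmt1: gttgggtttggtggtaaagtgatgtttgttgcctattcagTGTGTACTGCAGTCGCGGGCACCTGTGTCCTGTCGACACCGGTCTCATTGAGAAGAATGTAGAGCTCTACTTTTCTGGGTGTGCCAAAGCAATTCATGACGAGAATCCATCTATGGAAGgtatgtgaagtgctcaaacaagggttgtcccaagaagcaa
Sf3b3: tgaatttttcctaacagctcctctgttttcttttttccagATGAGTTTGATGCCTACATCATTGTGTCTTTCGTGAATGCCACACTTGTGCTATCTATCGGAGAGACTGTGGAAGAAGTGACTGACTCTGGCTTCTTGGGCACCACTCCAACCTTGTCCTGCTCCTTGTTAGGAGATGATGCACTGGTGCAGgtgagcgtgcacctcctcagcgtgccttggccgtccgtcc
The exons were 84, 217, 70, 119 and 152 bp long in this order. All 5 followed an ag dinucleotide, and 4 were followed by gt; the Ubr4 exon was followed by gc. G+C was higher in the exon than in its flanks for Ubr4 (51.2% against 38.8%), Prrc2b (58.5% against 55.0%) and Dnmt1 (49.6% against 43.8%), and lower for Myh9 (55.7% against 65.0%) and Sf3b3 (48.7% against 52.5%).

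The 1536 domains covered 12.9 Mb, 22.9% of the 56.4 Mb in the whole H3K36me3 list. Their median width was 7200 bp (quartiles 6000 and 9400), against 1000 bp (600 and 1600) for the narrower regions. Just inside the limit, 101 domains were 5200 bp wide, and just outside it 134 regions were 5000 bp wide. There were 310 domains above 10000 bp, 29 above 20000 bp and 6 above 30000 bp. Where neighbouring regions separated by at most 2 kb were joined first, 3200 domains spanning 38.7 Mb met the same rule. That length includes the unlisted gaps between the joined regions, so it is not a part of the 56.4 Mb.

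The widest domain was 60.2 kb in Ubr4, which encodes a giant ubiquitin ligase that recognises N-terminal degrons (chr4:138961601-139021800). It began in intron 17, 25.0 kb after the transcript start, and touched 71 of the 107 exons of the 109 kb transcript. Prrc2b carried a domain of 41.4 kb with 26 of 31 exons. Myh9, a non-muscle myosin heavy chain, carried 37.2 kb with 38 of 41 exons, and its domain began 44.2 kb after the start, in intron 3. In Dnmt1, the maintenance DNA methyltransferase, a domain of 36.2 kb began in intron 1 and held 38 of 39 exons. In Sf3b3, a subunit of the U2 particle of the spliceosome, a domain of 35.0 kb began 1.70 kb after the start and ran to the transcript end with 25 of 26 exons. In Myh9, Dnmt1 and Sf3b3 the domain thus left out at most 3 exons, all at the start of the gene.

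The next widest were 30.6 kb in Fn1 (fibronectin), 29.4 kb in Hspg2 (perlecan), 28.6 kb in the deubiquitinase gene Usp7, 28.4 kb in Sfi1 (a centrosomal protein) and 27.6 kb in Actn4 (an actin-crosslinking actinin). In Usp7 the domain began 75.0 kb into a 103 kb transcript, in intron 2, and held 30 of 32 exons. Of the 10 widest, 6 touched the last exon. Sfi1 has near-identical copies elsewhere in the mouse genome, so its position is uncertain. It was also the least exonic of the 10, with 3.79% of the domain in exons against 8.73% of its transcript outside H3K36me3.

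All but 4 domains touched the transcript of a protein-coding gene, taken as the one with the longest coding sequence, and the 1532 assigned domains fell in 1228 genes. The 4 exceptions lay in Rian and 9430008C03Rik, which are long non-coding RNAs that host small nucleolar RNAs, and in parts of Tmpo and Rbpms outside the chosen transcripts. In all, 1367 of 21409 autosomal protein-coding genes (6.39%) were touched by a wide domain and 34.7% by any H3K36me3 region. Of the 7435 genes with any H3K36me3 region, 18.4% were touched by a wide domain, as were 9.16% of the genes above 10 kb. Genes touched by a wide domain had a median of 14 exons (quartiles 9 and 20), against 9 (5 and 15) in the 6068 genes with H3K36me3 and no wide domain, although their median lengths of 21397 bp and 20537 bp were close. H3K36me3 regions covered a median of 69.1% of the transcript in the former and 22.1% in the latter.

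Several domains often shared a gene. There were 1116 genes touched by 1 domain, 195 by 2, 45 by 3, 9 by 4 and 2 by 5. The gap between neighbouring domains of a gene had a median of 1900 bp, and 98 of 304 gaps (32.2%, interval 27.2 to 37.7) were 200 bp, the width of a single bin of the authors' counting. The count of domains is therefore also a count of such interruptions. Gaps were poor in exons (5.55% of their bases). Summed over its domains, Ubr4 had the greatest length, 87.6 kb in 3 domains or 80.5% of the transcript. It was followed by Hspg2 (55.0 kb), Prrc2b (49.4 kb, 94.9% of the transcript), Fn1 (46.8 kb), Myh9 (45.8 kb) and Pcnt (45.0 kb in 5 domains), which encodes the centrosomal scaffold pericentrin. Chd2, a chromatin remodeller, had 43.0 kb in 4 domains, Usp48 42.4 kb, Mbtps1 (the site-1 protease of the Golgi) 37.7 kb, and Dst (the cytoskeletal linker dystonin) 37.0 kb in 5 domains, which was 12.5% of its 297 kb.

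Domains seldom held the start of a gene. The median domain began at 44.3% of the transcript (quartiles 23.1 and 65.8), 10498 bp after the start, and ended at 89.6% (68.8 and 100.0). The first exon was touched by 12 of 1532 domains (0.783%, interval 0.449 to 1.36) and the last exon by 646 (42.2%, 39.7 to 44.7). Narrower regions touched the first exon in 0.439% (0.367 to 0.526) and the last exon in 15.0% (14.5 to 15.4), shares that depend on width, since a longer region reaches more exons. Narrower regions began further into the gene and ended earlier, from a median of 60.1% (quartiles 35.5 and 80.9), 19558 bp after the start, to 67.2% of the transcript. A wider region around the same centre begins earlier and ends later, so these positions depend on width too. Transcript length was not matched between the groups. Wide H3K9me3 domains touched the first exon in 54.0% (47.1 to 60.8), with a median start at 0% of the transcript. They touched the last exon in 39.9% (33.3 to 46.8), an interval that holds the 42.2% of wide H3K36me3 domains, and their median end lay at 74.2%.

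**Figure D1:**
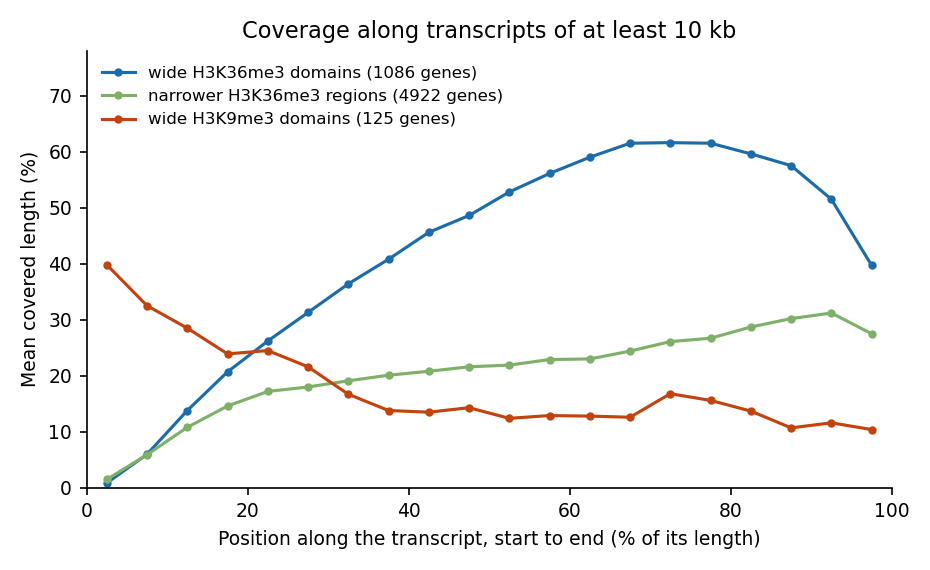
Mean share of each twentieth of the transcript covered by wide H3K36me3 domains, by narrower H3K36me3 regions and by wide H3K9me3 domains, over genes of at least 10 kb that hold the respective kind, against position from transcript start to end in percent. Coverage by wide H3K36me3 domains rose from 0.865% in the first of 20 parts to 61.6% in part 15 and was 39.7% in the last. Coverage by narrower regions was highest in part 19 (31.2%), and that of wide H3K9me3 domains was highest (39.8%) in the first part.

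The 5′ edge of 1432 domains (93.5%, interval 92.1 to 94.6) lay in an intron. It lay in intron 1 in 293 of these (20.5%), in intron 2 in 275 (19.2%) and in intron 3 in 155 (10.8%). Domains that began in intron 1 did so a median of 2815 bp after the transcript start, where the first intron was a median of 3440 bp long. In the profile along transcripts, the mean coverage by wide domains passed 50% only in part 11 of 20 (52.8%).

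The distance from the start scaled with the gene. In transcripts up to 10 kb, domains began a median of 1.70 kb after the start, at 22.6% of the length. In those of 10 to 20 kb they began at 4.13 kb (30.3%), from 20 to 40 kb at 12.1 kb (45.8%), from 40 to 80 kb at 31.1 kb (62.8%), and above 80 kb at 77.2 kb (76.0%). The share of domains touching the last exon went the other way, from 95.1% through 62.6%, 31.5% and 21.3% to 17.2%. A domain must be wider than 5000 bp, so in short transcripts it can hardly miss the last exon, and positions are best read within a length class. Genes of 10 to 20 kb and of 20 to 40 kb were touched most often by an assigned domain, with 393 of 3665 (10.7%) and 381 of 3617 (10.5%). Transcripts up to 10 kb had 142 of 8804 (1.61%) and those above 80 kb 91 of 2711 (3.36%).

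**Figure D2:**
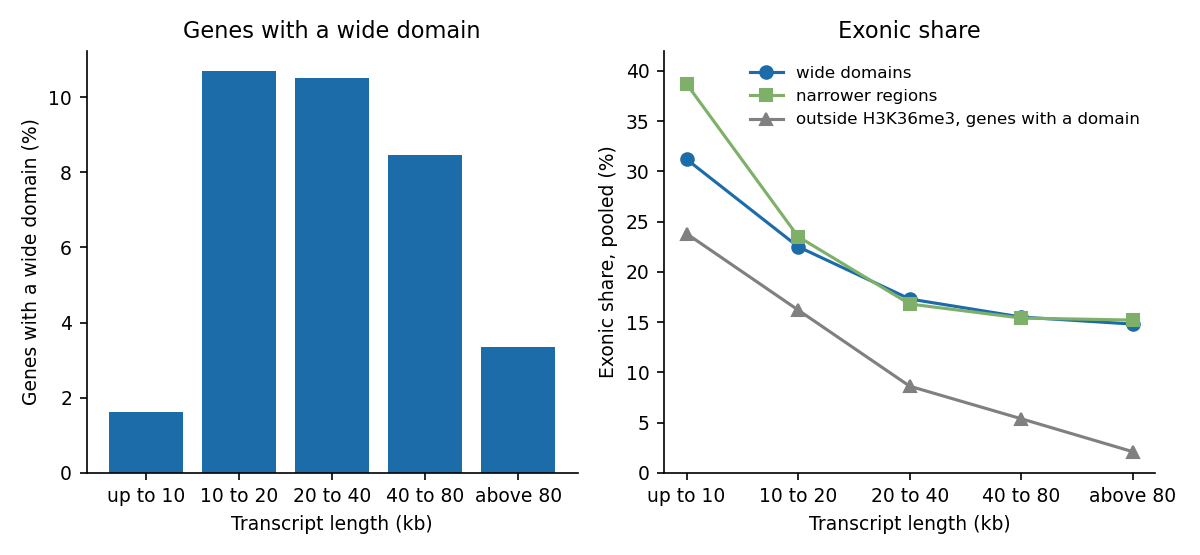
Left, share of autosomal protein-coding genes with an assigned wide H3K36me3 domain (bars, percent) by transcript length in kb. Right, pooled exonic share in percent of wide domains (circles), narrower H3K36me3 regions (squares) and the sequence outside H3K36me3 in genes with a wide domain (triangles): wide and narrower regions lay within 1 percentage point of each other in the 3 classes from 20 kb upwards, and both were above the unmarked sequence in each class.

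Exonic and coding shares were taken over the part of a domain inside its assigned transcript, which held 97.6% of the length of the assigned domains. Of 1532 domains, 1124 (73.4%) lay wholly inside. Exons made up 18.9% of that length, and coding sequence 14.3%. Across domains the median exonic share was 15.4% (quartiles 8.80 and 26.8), with a median of 6 exons touched (4 and 10). The pooled exonic share of narrower regions was close, at 19.4%, and their coding share was 13.3%. The next shares are counted per region and depend on the width that defines the domains, since a short region can miss every exon or lie within 1. No exon was touched by 35.8% of narrower regions (interval 35.3 to 36.4) but by 1.04% of wide domains (0.644 to 1.69), and 12.1% of narrower regions were at least 50% exonic, against 3.59% of domains. Within the genes that held a wide domain, narrower regions were 13.4% exonic, below the 18.9% of the domains, in 19 of 19 autosomes. In the remaining genes narrower regions were 21.3% exonic, and against all narrower regions the pooled share of domains was higher in 6 of 19 autosomes. In transcripts up to 10 kb domains were 31.2% and narrower regions 38.7% exonic, and from 10 to 20 kb 22.5% and 23.5%. By width, the median exonic share was 14.2% for the 764 domains up to 7000 bp, 15.7% for the 458 up to 10000 bp and 16.6% for the 310 above that.

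Each gene's domains were then set against the part of the same transcript that lay outside all H3K36me3 regions, in the 1189 genes where that part was at least 1000 bp. The pooled exonic share was 18.6% in domains and 5.85% outside, and the share was higher in the domains of 838 genes (70.5%, interval 67.8 to 73.0). Per gene the gap was smaller, with a median exonic share of 16.7% in domains and 8.50% outside. Coding sequence separated the compartments further. It made up 14.2% of the domains and 1.96% of the unmarked sequence, with a higher share in the domains of 1046 genes (88.0%, 86.0 to 89.7). The per-gene median of the coding share was 11.8% in domains and 2.14% outside. The unmarked part often holds the long first intron. Counted only downstream of the first intron, in 845 genes, the coding share was 13.7% in domains and 2.53% outside, and it was higher in the domains of 741 genes (87.7%, 85.3 to 89.7). For all exons the same count was 526 of 845 (62.2%, 58.9 to 65.5), with per-gene medians of 14.1% in domains and 8.77% outside. The medians per autosome had the direction of the totals in 19 of 19 autosomes for coding sequence in both comparisons, and in 19 and 17 of 19 for exons.

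**Figure D3:**
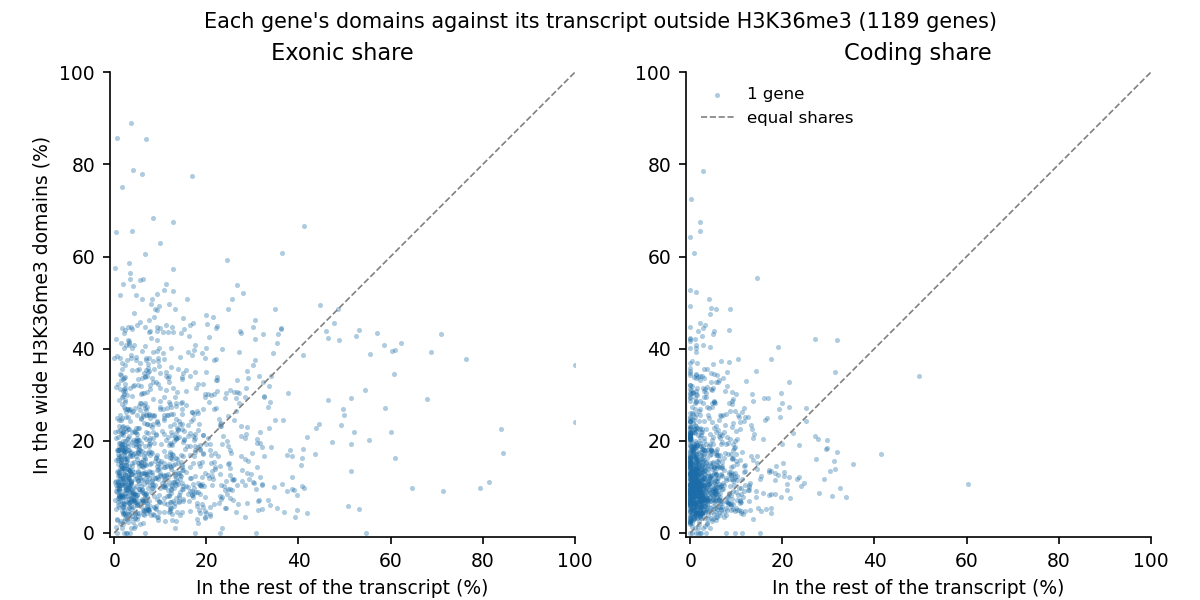
Exonic share (left) and coding share (right) of the wide H3K36me3 domains of a gene (vertical axis, percent) against the same share in the part of its transcript outside H3K36me3 (horizontal axis, percent), 1 point per gene, 1189 genes, with a dashed line at equal shares. For coding sequence 1046 genes lie above the line, and for all exons 838 do.

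Introns wholly inside a wide domain had a median length of 458 bp (quartiles 157 and 1033, 10165 introns), against 1401 bp (533 and 2978, 9376 introns) for the other introns of the same transcripts. An intron must fit within the domain to be counted inside, and one crossed by an edge is counted with the others. Both favour short introns inside, so the lengths describe the domains and are no test of a difference.

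The 5′ edges of domains, and the 3′ edges of those that ended before the last exon, lay in stretches poor in exons. Exons made up 7.88% of bases at 800 to 1000 bp before the 5′ edge, fell to 4.44% at 200 to 400 bp before it, and reached 14.4% at 400 to 600 bp inside. At the 3′ edge the exonic share peaked at 37.3% at 200 to 400 bp inside, and it was 21.6% in the first 200 bp beyond. That peak belonged to domains that end in last exons. In the 886 domains that did not touch the last exon, the share fell from 10.5% at 800 to 1000 bp inside the 3′ edge to 2.59% in the first 200 bp outside, and rose again to 12.8% at 800 to 1000 bp outside. Both internal edges thus coincided with stretches poorer in exons than the sequence on either side.

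**Figure D4:**
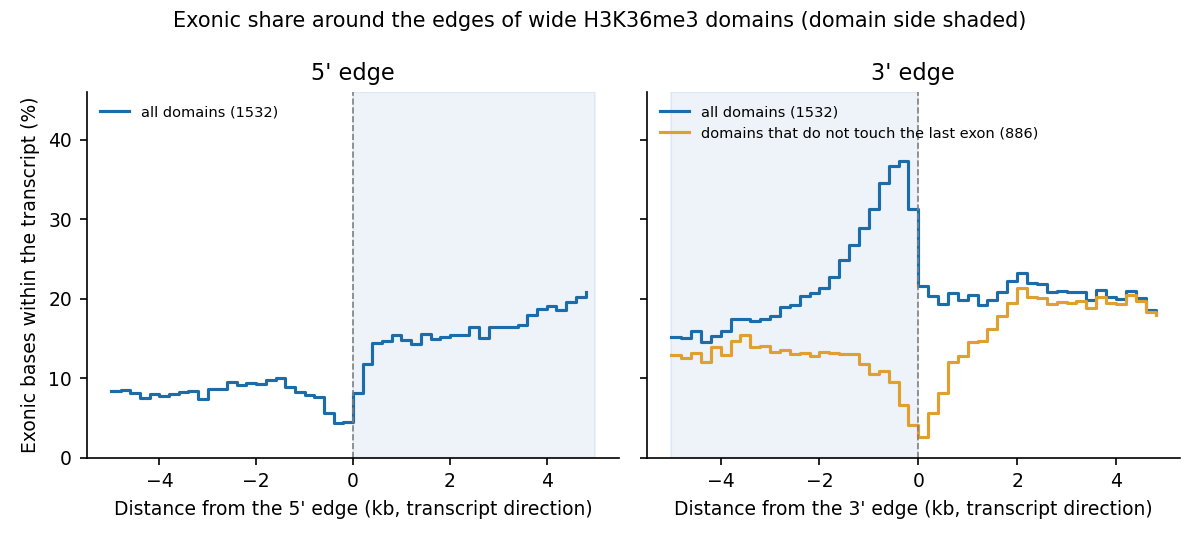
Exonic share of the bases of the assigned transcript (percent) in 200 bp steps within 5 kb of the 5′ edge (left) and the 3′ edge (right) of wide H3K36me3 domains, with the domain side shaded, for all 1532 domains and, at the 3′ edge, for the 886 that did not touch the last exon. The share dips to 4.44% before the 5′ edge and to 2.59% just beyond the 3′ edge of domains inside genes.

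Base composition was read from the genome sequence. Domains had a median G+C of 48.4% (quartiles 45.1 and 51.7), against 46.8% for narrower regions and 52.8% for wide H3K9me3 domains. The ratio of observed to expected CpG was low in domains (median 0.227) and in narrower regions (0.223), and higher in wide H3K9me3 domains (0.494). Introns alone had a ratio of 0.190 in the domains of a gene and 0.270 in the rest of its transcript, and it was higher in the domains of only 163 of 1130 genes (14.4%, interval 12.5 to 16.6). With the rest counted only downstream of the first intron the medians lay closer, at 0.193 and 0.208, and domains were higher in 312 of 750 genes (41.6%, 38.1 to 45.2). CpG density in the same introns went the other way, with medians of 1.07 CpG per 100 bases in domains and 1.01 in the rest, and was higher in the domains of 420 of 750 genes (56.0%, 52.4 to 59.5). G+C of introns was 47.6% in domains and 44.4% in the rest downstream of the first intron, and higher in the domains of 623 of 750 genes (83.1%, 80.2 to 85.6).

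The 5 domains of highest exonic share held long exons. The most exonic domain, 6800 bp in Spen, which encodes a transcriptional repressor needed for X inactivation, was 98.8% exonic and 98.8% coding and touched 1 exon (chr4:141027201-141034000). A 6600 bp domain in Akap12, an anchor of protein kinase A, was 85.8% exonic, and one in Zfp646 of 6600 bp was 84.4% exonic. In the other two, part of the domain lay beyond the end of the transcript. In Smcr8 the 4789 bp inside it were 94.7% exonic and 9.42% coding, and exons of Smcr8 filled 63.0% of the full 7200 bp. In the sialyltransferase gene St6galnac2 the 2784 bp inside it were 85.5% exonic and 5.93% coding, and its exons filled 45.8% of the full 5200 bp. Both domains also touched a neighbouring gene, Shmt1 and 1810032O08Rik respectively.

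There were 16 domains without an exonic base, and this held for every protein-coding transcript of their genes. The widest of them was 10.6 kb in Hs6st1, a heparan sulfate sulfotransferase gene with 2 exons in the transcript used. Others lay in Ahdc1 (8600 bp, after exon 6 of 7), Syt11 (7200 bp) and Igfbp2 (7000 bp). The 8800 bp domain assigned to Epo lay in an intron of a 50.2 kb transcript that spans Gigyf1, which the domain also touched, so its assignment is uncertain. One of the 16, named after its values were seen, was in H3f3a, the gene targeted in the G34R cells. It was 6800 bp wide (chr1:182733401-182740200), 3.56 kb after the transcript start in a 12.8 kb transcript of 4 exons, and lay after exon 3. Of the 16, 4 also touched a gene of another type, and that of H3f3a was 1 of these. H3f3b, the other H3.3 gene, had 800 bp of H3K36me3 and no wide domain.

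Few domains reached the start of the transcript used in a long gene. That transcript is the one with the longest coding sequence, and the gene may start further upstream. Among transcripts of at least 20 kb, the domain in Tet2, a dioxygenase that oxidises 5-methylcytosine, began upstream of the transcript used. Of the 4635 bp inside the transcript 68.2% were coding, which is 58.5% of the full 5400 bp. A second domain in Prrc2b, 8000 bp wide, began in the first exon of the transcript used. The next were in Sf3a1, another subunit of the U2 particle (20600 bp, from 0.448 kb after the start), in Anapc5, a subunit of the anaphase-promoting complex (5400 bp, from 0.948 kb), and in the arginine methyltransferase gene Prmt7 (9600 bp, from 1.36 kb).

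Domains that joined genes did so at their 3′ ends. Of 1536 domains, 152 (9.90%, interval 8.50 to 11.5) touched at least 2 protein-coding genes, 149 of them exactly 2. In 130 of the 149 pairs (87.2%, 80.9 to 91.7) the genes lay tail to tail, 13 were nested, 5 lay head to tail and 1 lay head to head. Narrower regions that touched 2 genes did so tail to tail in 311 of 525 (59.2%, 55.0 to 63.4). Among neighbouring genes at most 200 bp apart that both carried H3K36me3, 428 of 847 pairs (50.5%, 47.2 to 53.9) lay tail to tail and 276 (32.6%) head to head. The transcripts of 77 of the 130 tail to tail pairs overlapped (59.2%), and the largest gap was 1224 bp. The 3 domains with 3 genes were 14.4 kb over Upf1 (the helicase of nonsense-mediated decay), Lass1 and Gdf1, 7400 bp over Map3k12, Pcbp2 (an RNA-binding protein) and Gm10337, and 5200 bp over Rdbp (a subunit of the negative elongation factor), Cfb and Gm20547. The widest with 2 were the domain of Actn4 and Capn12 and that of the laminin gene Lama5 (26.6 kb, 68 of 79 exons, 41.4% coding) with Adrm1.

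By function, the domains were frequent in genes of RNA processing, transport, protein folding and replication, and their share was below that of all genes in olfactory receptors, vomeronasal receptors and keratins. The share of all genes, 6.39%, is the background to the counts that follow. The 36 lists were chosen with earlier results of these data known, so their tally is description only. Intervals were not adjusted for the number of lists. Of the 36, the interval of the share lay above the background in 23, held it in 10 and lay below it in 3. Every list in the first set also had more than the background share of genes with any H3K36me3. Among marked genes alone, with a background of 18.4%, the interval lay above it in 14 of the 34 lists with a marked gene, held it in 19 and lay below it in 1. Those that held it included the proteasome, ubiquitin-specific protease, ubiquitin ligase, DNA repair, cohesin and condensin, chromatin remodelling, Mediator, PIKK, ribosomal protein, membrane coat and pluripotency lists. The median gene of all 21409 had 0 bp of H3K36me3, and the median of the marked genes was 4400 bp (quartiles 1776 and 9778).

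Genes listed as enzymes or readers of H3K36 methylation are few, and their intervals are wide. Of 8 genes listed as H3K36 methyltransferases, 7 carried H3K36me3 and 0 a wide domain (0%, interval 0 to 32.4, which holds the background). The list is not limited to Setd2, whose enzyme places H3K36me3, and its other members are not counted here as writers of the trimethyl mark. Setd2 had 13 regions that summed to 12.4 kb with none above 2000 bp, and Nsd1 had 34 regions summing to 55.4 kb with the widest at 5000 bp, the limit itself (genes of this list were named after their values were seen). Among 6 genes listed as H3K36 demethylases, Kdm4a (10.0 kb) and Kdm4b (8.29 kb of its transcript) held a wide domain. Kdm2a, Kdm2b, Kdm4c and Kdm4d did not (33.3%, interval 9.68 to 70.0). The list is wider than the paper's main H3K36me3 demethylases, KDM4-A, -B and -C, and the share depends on counting Kdm4d. Of 13 genes for H3K36me3 readers, 5 did (38.5%, 17.7 to 64.5), led by Brpf1 (13.1 kb), Mum1 (12.4 kb) and Glyr1 (8.40 kb). The intervals of these lists overlap, and no difference between them was tested.

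Many genes of transcription and RNA processing held wide domains. They touched 27 of 52 spliceosome components (51.9%, interval 38.7 to 64.9), of which 51 carried H3K36me3, with a median of 11200 bp of the mark per gene. The greatest lengths were 34.6 kb in Sf3b3, 22.4 kb in Eftud2 and 20.6 kb in Sf3a1. Elongation factors had 10 of 21 (47.6%, 28.3 to 67.6), led by Supt6h (27.4 kb), a histone chaperone that travels with the polymerase, Polr2a (13.5 kb), its largest subunit, and Supt5h (11.7 kb). DEAD and DEAH box helicases had 20 of 51 (39.2%), with 27.4 kb in Dhx9, 17.4 kb in Dhx37 and 15.1 kb in Dhx38. RNA polymerase subunits had 8 of 26 (Polr1a, Polr3e and Polr2a first) and factors of mRNA decay 9 of 30 (Cnot1, Smg5, Upf1). Mediator subunits had 3 of 28 (Med13l, Med17, Med23), an interval of 3.71 to 27.2% that holds the background.

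In nuclear transport, wide domains touched 12 of 24 nucleoporins (50.0%, interval 31.4 to 68.6; Nup133 37.0 kb, Nup188 33.4 kb, Pom121 16.0 kb) and 8 of 24 importins and exportins (Ipo5, Kpnb1, Xpo5). In replication and repair, 17 of 41 replication factors (41.5%, 27.8 to 56.6) held a domain, with 29.5 kb in the topoisomerase gene Top2a, 24.4 kb in Pole and 18.3 kb, 97.0% of the transcript, in the helicase subunit gene Mcm5. DNA repair factors had 9 of 35 (Parp1, Ddb1, Mdc1), cohesin and condensin 6 of 23 (Ncapd2, Mau2, Ncaph), chromatin remodelling ATPases 6 of 26 (Chd2, Smarca4, Ttf2), and PIKK family kinases 1 of 6 (Trrap).

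Protein synthesis and turnover covered a wide range. Chaperonin, Hsp70 and Hsp90 genes had 12 of 26 (46.2%, interval 28.8 to 64.5; Hspa4 19.8 kb, Cct3 19.5 kb, Hsp90b1 13.2 kb), genes listed as initiation factors 16 of 51 (Eif2c2, Eif3c, Eif3a) and aminoacyl-tRNA synthetases 11 of 37 (Iars, Cars, Rars). Eif2c2 stands in that list by its symbol but encodes an Argonaute protein, so the count of initiation factors is approximate. Proteasome subunits had 8 of 42 (Psmc1, Psmd5, Psmd12), ubiquitin ligases 7 of 37 (Ubr4, Nedd4, Ube3b) and ubiquitin-specific proteases 8 of 44 (Usp48, Usp7, Usp36). Genes listed as cytosolic ribosomal proteins, which include the Rpl7-like gene Rpl7l1, had 7 of 79 (8.86%, 4.36 to 17.2; Rps15a, Rpl7l1, Rpl5) although 73 carried H3K36me3. Their median transcript of 3221 bp is shorter than the 5000 bp that a domain must exceed. Ribosomal protein genes have many processed copies, which makes their regions less certain.

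Glycolysis and fatty acid synthesis had 8 of 18 (44.4%, interval 24.6 to 66.3), with 30.0 kb in Acly, 26.9 kb in Gpi1 and 26.4 kb in Pfkp. Membrane coat proteins had 7 of 26 (Ap3d1, Copg, Ap2a2), and kinesins and dynein 10 of 47 (Dync1h1, Kif2c, Kif18b). Of 26 pluripotency genes, 25 carried H3K36me3 and 7 a wide domain (26.9%, 13.7 to 46.1), led by Tet1 (27.0 kb), the LIF receptor subunit gene Il6st (13.8 kb) and Esrrb (11.4 kb). The short genes Pou5f1, Sox2 and Nanog, of 4.74, 2.46 and 7.07 kb, had 1.92, 1.78 and 2.85 kb of the mark and no wide domain (named after their values were seen).

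Zfp zinc finger genes had 15 of 355 (4.23%, interval 2.58 to 6.85; Zfp335, Zfp217, Zfp106), an interval that holds the background. Among the marked Zfp genes the share was 7.54% (4.62 to 12.1), below the 18.4% of all marked genes. The rule against H3K9me3 bears on this list. With overlap allowed, 23 Zfp genes had a domain instead of 15, while the share of all genes went from 6.39% to 7.49%. No wide domain was found in 1081 olfactory receptors (upper limit of the interval 0.354%), 318 vomeronasal receptors (1.19%), 97 keratin genes (3.81%), 41 collagens (8.57%) or 39 Hox genes (8.97%). The intervals of collagens and Hox genes hold the background. Median transcripts were 960 bp in olfactory receptors, 1058 bp in vomeronasal receptors, 3906 bp in keratins and 3421 bp in Hox genes. Such lengths leave little room for a domain above 5000 bp. These genes also seldom carried the mark at any width. An H3K36me3 region touched 1 of 1081 olfactory receptors, 0 of 318 vomeronasal receptors, 1 of 97 keratin genes and 0 of 39 Hox genes. The share of all genes was 34.7%. Of 110 vomeronasal receptors above 10 kb, 0 had a wide domain, against 9.16% of all genes above 10 kb. Whether transcript length accounts for the missing domains was not tested. Voltage-gated ion channels had 1 of 49 (Kcnh3, where 1048 bp of a domain fell within the transcript), glutamate and GABA receptors 1 of 41 (Gabbr1, 19.4 kb) and cadherins 1 of 57 (Cdh3, 6000 bp). Their intervals of 0.361 to 10.7%, 0.432 to 12.6% and 0.310 to 9.29% hold the background of 6.39%.

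**Figure D5:**
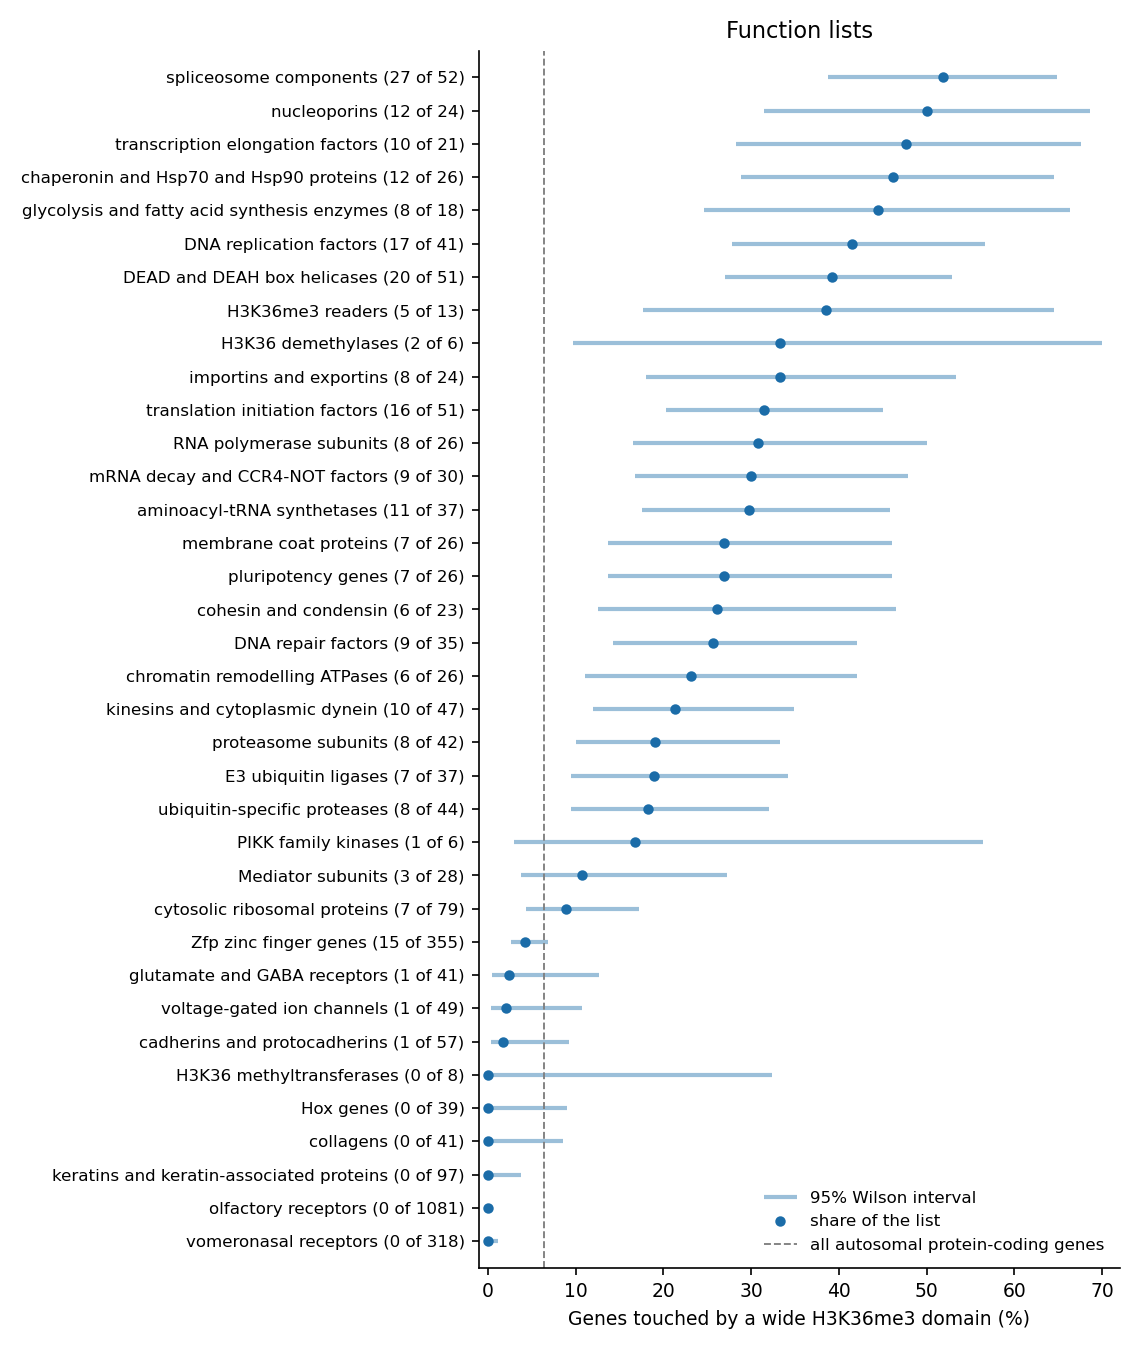
Share of the genes of each of 36 function lists touched by a wide H3K36me3 domain (points, percent, with 95% Wilson intervals as bars and the counts beside each name), with a dashed line at the share of all autosomal protein-coding genes, 6.39%. Spliceosome components are highest with 27 of 52, and no domain touched an olfactory receptor, a vomeronasal receptor, a keratin, a collagen, a Hox gene or a gene listed as an H3K36 methyltransferase.

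Chromosomes differed in how many of their genes held a domain. Chromosome 11 had 188 of 1653 (11.4%, interval 9.93 to 13.0) and chromosome 8 had 111 of 1081 (10.3%, 8.60 to 12.2), while chromosome 14 had 33 of 953 (3.46%, 2.48 to 4.82) and chromosome 6 had 43 of 1171 (3.67%, 2.74 to 4.91). Among genes with any H3K36me3 the share ran from 11.9% on chromosome 12 to 25.8% on chromosome 11. H3K9me3 elsewhere in the transcript was found in 322 of 1367 genes touched by a wide domain (23.6%, 21.4 to 25.9) and in 2218 of 6068 genes with H3K36me3 and no wide domain (36.6%, 35.3 to 37.8), against 8607 of all 21409 genes (40.2%, 39.5 to 40.9). By region the order was the other way, since 306 of the 1842 autosomal H3K36me3 regions above 5000 bp overlapped an H3K9me3 region (16.6%, 15.0 to 18.4) against 8.63% (8.32 to 8.96) of narrower ones, and a wider region has more length in which to overlap. The absence of H3K9me3 within the domains was part of their choice and bears on this count. The widest regions left out for H3K9me3 were a region of 41.4 kb outside the protein-coding transcripts used, in which all 41400 bp were also listed for H3K9me3, and 32.0 kb in Cnot1 and 31.4 kb in Dync1h1, each with 600 bp of H3K9me3.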

How the data were processed

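ChIP-seq of H3K36me3 and H3K9me3 was carried out in WT and G34R ES cells, with 1 library for each of 4 groups. The study states that its reads were mapped to mm9 with Bowtie 1.0.0 and counted in 200 bp bins in SeqMonk. Genic bins above a high percentile of either cell type were then merged with bedtools 2.20.1 (versions of Bowtie and bedtools from the submitters' processing notes). The authors deposited 1 list per mark with 3 columns, the chromosome, start and end positions of each region, and these positions are the only unit. The methods, read literally, drop merged regions larger than a limit below 600 bp, but the narrowest region in the list was 600 bp wide, so the list as deposited does not follow that wording. Libraries' depth is unknown, so intervals cover counting error only. The list holds 0 columns of other samples.

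Positions were compared with GENCODE annotation of NCBIM37, which is equivalent to mm9. On 0 of 19 autosomes did a region pass the end of the chromosome. Each protein-coding gene was represented by the transcript with the longest coding sequence, 1 model of 4.43 Mb that spans many genes was left out, and a domain was assigned to the transcript it overlapped most. Touching meant at least 1 bp. Shares carry 95% Wilson intervals. The interval functions were tested on simulated data. The members and the 36 gene lists were chosen with earlier results of these data known. Named were the genes of the 10 widest domains, the 10 genes with the greatest length in domains, the 5 domains of highest and of lowest exonic share, the 5 nearest to the start of transcripts of at least 20 kb, the 5 touching the most genes and, per list, the 3 members with the greatest domain length. Python 3.11.15 with numpy, pandas and matplotlib was used. Alternatives covered the width limit, joining, the H3K9me3 rule, sex chromosomes, the transcript model and the gene set.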

Additional observations from a re-analysis of the deposited data

How the results depend on the processing

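No paired analysis was possible because each group was 1 library, and leaving out a replicate was not possible for the same reason. WT and G34R cells were not compared, since the lists give no value per cell type. Of 69 values recomputed under the alternatives, 36 stayed within their interval or, for counts, within 1.5 times, and 247 of 324 counts per function list did. With a width above 3000 bp there were 3600 domains (21.0 Mb, median 4800 bp), with a median exonic share of 14.5%, a median start at 51.0% and end at 84.2%, the last exon touched by 35.7% and a domain in 12.2% of genes. Above 10000 bp these were 310 domains, 4.49 Mb, 13000 bp, 16.6%, 37.5%, 97.4%, 54.8% and 1.55%. With neighbours within 2 kb joined they were 3200 domains, 38.7 Mb with the joined gaps, 9600 bp, 13.9%, 34.4%, 96.8%, 59.7% and 14.6%. The share of genes more exonic in domains than in the rest was then 63.9%. Allowing overlap with H3K9me3 gave a domain in 7.49% of genes. Counting exons of all transcripts gave an exonic share of 16.5% and 67.8% of genes more exonic in domains. With domains touching exactly 1 gene, the exonic share was 14.2%, the end lay at 86.8% and the last exon was touched by 36.5%. Among genes longer than 10 kb, 9.16% had a domain, and among genes with any H3K36me3 region 18.4% did. The cause of these shifts was not tested beyond what each setting changes by construction. Spliceosome components had 9 to 37 of 52 members with a domain over the settings, and genes listed as H3K36 methyltransferases 0 to 2 of 8.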

Other observations

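Outside the autosomes, 2 H3K36me3 regions wider than 5000 bp shared no base with H3K9me3. Both lay on chromosome X, 12400 bp in Hcfc1 (chrX:71188801-71201200), which encodes a cofactor of transcription, and 5800 bp in Flna (chrX:71482801-71488600), which encodes the actin crosslinker filamin A.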
